A study of Mus musculus with 30 samples.

Results

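The comparison described here set bone marrow libraries labelled LSK from 12-month-old mice against libraries labelled LSK from 3-month-old mice. LSK cells are lineage-negative, Sca1-positive and cKit-positive. The members were chosen by the age and fraction on their labels, 3 libraries at each age, which makes 6 of the 30 samples of the series. Mice of a mixed 129/C57BL/6 strain carried wild-type Tet2 (WT), a Tet2 labelled Mut, which the title of the series calls catalytic deficient, or a Tet2 knockout (KO). RNA-seq covered the LSK and the lineage-negative fraction of each genotype at 3, 6, 9 and 12 months, 24 libraries in all, and 6 bisulfite samples were not analysed here. Marrow of 3 mice was pooled for every library, and a genotype had 1 such pool at each age and fraction. The 12-month group therefore held 1 WT, 1 Mut and 1 KO pool, as did the 3-month group, and no genotype was replicated at either age. An age difference common to the 3 genotypes was what the design could measure. The p-values of the LSK comparison measure how unevenly the genotypes changed over 3, 6, 9 and 12 months. Constant differences between genotypes were taken out by the fit.

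LSK cells hold the blood stem cells and the earliest multipotent progenitors of the marrow. With age, mouse stem cells are known to accumulate and to give more platelet and myeloid output and less lymphoid output. Tet2 oxidises 5-methylcytosine in DNA, and its loss is known to expand stem and progenitor cells. Vwf, Clu, Selp and Aldh1a1 are among the genes that earlier work placed higher in aged stem cells, while Rag1, Dntt and Igll1 mark the first steps into the lymphoid lineage.

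The makeup of the pools and the sort touch every result. Uty, Kdm5d, Ddx3y and Eif2s3y lie on the Y chromosome, and their summed normalized count was 7299, 7015 and 7964 in the 3-month WT, Mut and KO LSK libraries and 0, 4004 and 2062 in the 12-month ones. Xist, the RNA of the inactive X chromosome, was listed at 0, 3.77 and 4.48 at 3 months and reached 18060, 7795 and 12684 at 12 months. Neither measure overlapped between the ages, so the 3-month LSK pools read as male mice and the 12-month pools as female (WT) or mixed pools (Mut and KO). Age and the sex of the mice cannot be told apart in the 6 libraries. The Mut and KO lineage-negative pools held both signals at each age: the Y-linked sum was 3760 at 3 and 3893 at 12 months in Mut, and 2222 and 1901 in KO. Their Xist went from 5846 to 3725 in Mut and from 5248 to 10974 in KO. The 12 minus 3 month change of those pairs is therefore given beside the LSK values. So is the LSK change from a fit that carried the Y-linked sum, scaled to its highest library, as a covariate (the Y index). At 12 months the Y-linked sums of LSK and lineage-negative pools were close, 4004 and 3893 in Mut and 2062 and 1901 in KO. Xist was 7795 and 3725 in Mut and 12684 and 10974 in KO. The sample titles do not give whether both fractions came from the same mice. The lineage-negative pairs may therefore not be independent of the LSK values.

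**Figure D1:**
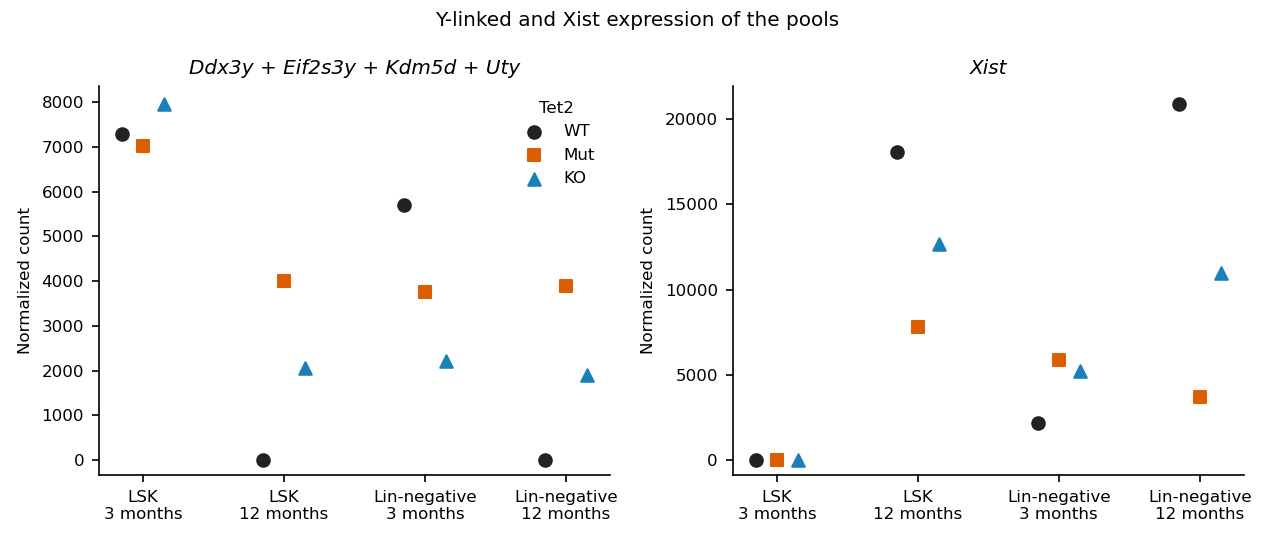
Normalized counts of the Y-linked genes, summed over 4, (left axis panel) and of Xist (right panel) in the LSK and lineage-negative libraries of 3 and 12 months, 1 point per pool, with shape and colour giving the Tet2 genotype. The 3-month LSK pools sit at 7015 or above for the Y-linked sum and at 4.48 or below for Xist, while the Mut and KO lineage-negative pools hold both at each age.

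The sort was checked next. Across the 12 pairs of LSK and lineage-negative libraries, 0 of 16066 genes (0%) differed in level by limma, the test used throughout, at an adjusted p under 0.05, although 3582 did at an unadjusted p under 0.05; edgeR also gave 0, with 3551 at an unadjusted p under 0.05. Ly6a, which encodes Sca1, had 238, 298 and 376 normalized counts in the 3-month WT, Mut and KO libraries labelled LSK, and 407, 680 and 706 in the lineage-negative libraries of that age. The 21 measured genes of a granulocyte list took 7.58% to 9.23% of each 3-month LSK library and 5.45% to 6.32% of each 12-month one. Neutrophil granule transcripts were thus abundant in libraries labelled LSK, and the text speaks of libraries labelled LSK in that sense. Read totals of the 6 libraries were 33943957 to 43059791.

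At 12 months, 3662 of 16042 genes (22.8%) differed from 3 months, 1813 higher (11.3%) and 1849 lower (11.5%), by limma on log2(normalized count + 1) with genotype and age as factors and Benjamini-Hochberg adjustment over all genes. All differences below are on that scale, 12 minus 3 months, with WT, Mut and KO values always in that order and n = 3 pools at each age. The median over all genes was 0.03. The change had the same sign in all 3 genotype pairs for 3653 of the 3662 genes. The test used these same 3 differences, so that count is no separate support. A change of at least 1 (log2) was found for 210 genes that rose and 449 that fell. With the Y index in the model 1 gene (0.00623%), Vwf, passed the same threshold and 2216 had an unadjusted p under 0.05. In that fit 3476 of the 3662 (94.9%) kept their sign, and their change was a median 0.703 of its size without the index. The median standard error of these 3662 genes went from 0.110 to 0.191. Of the genes that rose, 1403 (77.4%) were also higher at 12 months in both the Mut and the KO lineage-negative pair, against 29.8% of all genes. Of those that fell, 1505 (81.4%) were lower in both, against 27.3%. The pools of the 2 fractions may share mice, so this agreement may not be an independent check. Leaving out 1 library gave between 1614 genes (without the 12-month KO library) and 3102 (without the 3-month Mut library). The count fell by over 1.5 times without the 12-month WT library (1684), the 12-month Mut library (2166) or the 3-month KO library (2208). The sex-linked genes themselves led the table, with Xist up by 12.00 and Eif2s3y, Kdm5d and Uty down. On the X chromosome 90 of 464 tested genes (19.4%) were called, below the share over all genes. Of these 90 genes 58 were higher at 12 months, while 49.5% of all called genes were higher.

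Of 27 measured members of a list of 32 genes that mark aged stem cells, 13 rose at 12 months (48.1%, against 11.3% of all genes), 1 fell and 13 did not pass. The median change was 0.97 against 0.03 over all genes. The summed level of the list, to which the abundant members contribute most, was 32582, 32464 and 33452 at 3 months and 29849, 31334 and 36619 at 12 months, lower at 12 months in WT and Mut and higher in KO. Vwf, which encodes von Willebrand factor and marks platelet-biased stem cells, had 474, 302 and 351 normalized counts at 3 months and 1458, 1112 and 1421 at 12 months. Every 12-month library was above every 3-month library. The change was 1.84 ± 0.12 (standard error, adjusted p = 4.8e-05), it was 1.99 with the Y index, and it was 1.36 and 1.72 in the Mut and KO lineage-negative pairs. The 6-month libraries held 836, 612 and 794 and the 9-month libraries 918, 508 and 624, between the 2 end ages in every genotype. Cavin2, a caveolar coat protein, went from 100, 88.7 and 78.4 to 315, 238 and 324, a rise of 1.70 ± 0.19 (adjusted p = 0.00076). Clu, the secreted chaperone clusterin, rose by 1.78 ± 0.26 (adjusted p = 0.0016), from 73.0, 42.4 and 39.2 to 211, 113 and 218. Aldh1a1, an aldehyde dehydrogenase that makes retinoic acid, rose by 1.03 ± 0.13 (adjusted p = 0.00093) and Itga2b, the integrin CD41, by 0.97 ± 0.10 (adjusted p = 0.00034). In these genes the groups of libraries did not overlap. Over the list 14 of 27 members lay above at 12 months without overlap, against 17.6% of all genes. Below in that way was 1, against 17.9%. Selp, the adhesion receptor P-selectin, had 168, 150 and 105 at 3 months and 339, 328 and 433 at 12 months. Its rise of 1.39 ± 0.34 (adjusted p = 0.015) was 0.28 with the Y index, and Clca3a1 went from 1.47 to 0.03 in the same way, so these 2 members, unlike Vwf, Clu and Cavin2, lost most of their change there. Gda, a guanine deaminase, was the member that fell, by 0.45. The list's median was 0.62 with the Y index and 0.59 and 0.69 in the Mut and KO lineage-negative pairs. Without the 12-month KO library 7 members rose, without the 12-month WT library 8 and without the 3-month KO library 9. In bulk libraries a gene's level cannot separate a change in the share of cells of one type from a change in RNA per cell.

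**Figure D2:**
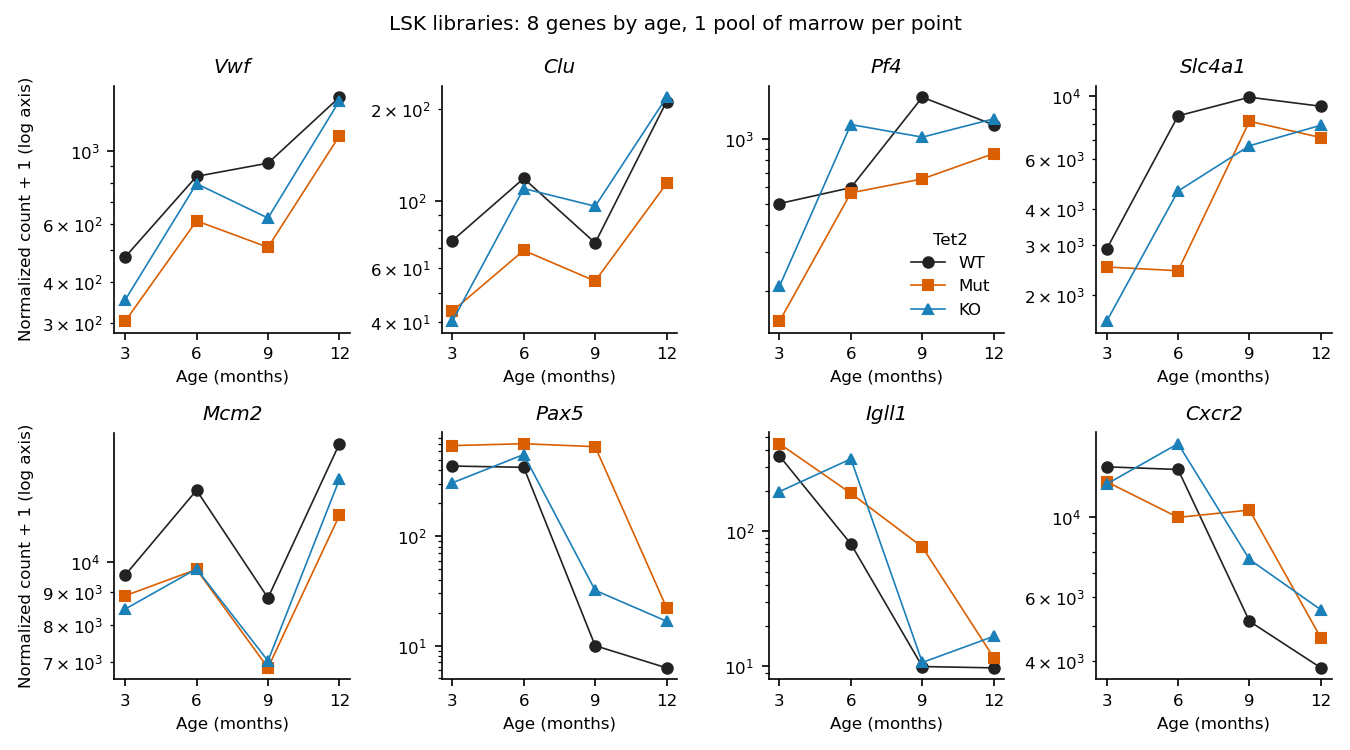
Normalized count + 1 (log axis) of 8 genes in the 12 libraries labelled LSK against age in months, 1 pool per point, with colour and shape for the Tet2 genotype. Vwf, Clu, Pf4, Slc4a1 and Mcm2 are higher at 12 than at 3 months in each genotype, Pax5, Igll1 and Cxcr2 lower, and the Mut pool of 9 months still holds 659 counts of Pax5.

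Genes of long-term stem cells moved less, and not as a block. Of 23 measured members 7 rose (30.4%, against 11.3% of all genes), 2 fell (8.7%, against 11.5%) and 14 did not pass. The median change was 0.40. Angpt1, the Tie2 ligand angiopoietin 1, rose by 1.02 ± 0.16 (adjusted p = 0.0022), from 444, 444 and 332 to 982, 771 and 728. Its receptor Tek rose by 1.58 ± 0.43 (adjusted p = 0.021) from low levels of 20.1, 17.9 and 40.3, and by 0.23 with the Y index. Mllt3, a chromatin reader known to maintain stem cells, rose by 0.50 ± 0.12 (adjusted p = 0.012). Among the 14 members that did not pass were the transcription factors Hlf at 0.19, Meis1 at 0.45, Mecom at 0.83 and Gata2 at 0.34. Hoxb4, a homeobox factor of stem cell self-renewal, fell by 0.75 ± 0.13 (adjusted p = 0.0031), with values of 576, 585 and 580 at 3 months and 280, 408 and 355 at 12 months that did not overlap. It was the only called gene among the 13 measured Hox genes and cofactors of a separate list. Ifitm1, an interferon-induced membrane protein, was the other member that fell, by 0.89. The 2 sort markers did not pass: Kit, the cKit receptor, had 4185, 4614 and 4857 at 3 months and 6215, 5190 and 5683 at 12 months, a change of 0.32 (adjusted p = 0.055), and it did pass under TMM scaling, edgeR and DESeq2, while it was at -0.17 with the Y index. Ly6a changed by 0.49 (adjusted p = 0.40). At 12 months it was at 210 in WT, below the 3-month range, and at 643 and 546 in Mut and KO, above it. The list's median was 0.30 with the Y index and 0.56 and 0.25 in the Mut and KO lineage-negative pairs. The count of members that rose was 3 without the 12-month Mut library, and 4 without the 12-month WT, the 12-month KO or the 3-month KO library.

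Megakaryocyte and platelet genes had the highest median change of the lists. Of 21 measured members 14 rose (66.7%, against 11.3% of all genes) and 1 fell, with a median of 1.30. Pf4, the platelet chemokine platelet factor 4, had 503, 143 and 208 normalized counts at 3 months and 1159, 854 and 1236 at 12 months, a change of 2.11 ± 0.31 (adjusted p = 0.0017). Ppbp, its neighbour in the chemokine cluster and precursor of another platelet chemokine, rose by 3.02 ± 0.49 (adjusted p = 0.0024), from 45.6, 15.1 and 13.4 to 163, 147 and 237. Mmrn1, the platelet adhesive protein multimerin, rose by 1.58 ± 0.17 (adjusted p = 0.00052), with 116, 123 and 114 at 3 months against 357, 293 and 424. Each of these genes was higher in every 12-month library than in every 3-month library. That held for 14 of the 21 members, against 17.6% of all genes, and 2 were lower in that way, against 17.9%. Among subunits of the von Willebrand factor receptor, Gp5 rose by 1.40 and Gp1ba by 0.78, while Gp9 was at 0.69 (adjusted p = 0.066). Itgb3, the partner of Itga2b in the fibrinogen receptor, was at 0.04 and Fli1, a transcription factor of the lineage, at -0.17, and neither passed. Nbeal2, which platelets need to form alpha granules, fell by 0.64 ± 0.09 (adjusted p = 0.0015). Nbeal2 was by far the most abundant of these transcripts, at 15443 to 20264 counts at 3 months. Its weight left the summed level of the list at 0.0742% to 0.0916% of a 3-month library and 0.0776% to 0.0868% of a 12-month library, so the list rose by its member count and median and not by its sum. The median was 1.13 with the Y index, where 13 of the 21 members were higher at an unadjusted p under 0.05, and it was 1.51 and 1.27 in the Mut and KO lineage-negative pairs.

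The letters of 2 promoters of this list are shown because GATA factors drive megakaryocyte and erythroid genes. The windows run from 250 bases before to 50 after the start of the gene, from RefSeq's GRCm38.p6 annotation, 5' to 3' on the gene's strand, and capitals mark AGATAA or its reverse complement TTATCT. Pf4 lies at chr5:90772185-90772484 on the plus strand and Gp5 at chr16:30310732-30311031 on the minus strand.
Pf4: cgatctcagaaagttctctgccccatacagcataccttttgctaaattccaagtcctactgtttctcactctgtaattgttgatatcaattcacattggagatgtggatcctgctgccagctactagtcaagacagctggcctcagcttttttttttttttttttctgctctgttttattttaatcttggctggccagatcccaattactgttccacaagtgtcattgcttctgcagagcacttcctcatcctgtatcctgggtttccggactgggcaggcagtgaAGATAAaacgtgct
Gp5: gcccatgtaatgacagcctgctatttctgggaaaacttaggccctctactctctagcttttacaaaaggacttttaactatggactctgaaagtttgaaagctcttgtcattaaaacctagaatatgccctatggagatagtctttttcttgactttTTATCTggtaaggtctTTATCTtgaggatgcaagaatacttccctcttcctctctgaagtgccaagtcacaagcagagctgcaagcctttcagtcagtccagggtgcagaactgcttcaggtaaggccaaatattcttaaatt
The motif was searched on both strands. It stood in 5 of 15 megakaryocyte and platelet promoters (33.3%) and 5 of 18 erythroid promoters (27.8%), against 774 of 11119 promoters of tested genes (6.96%), and in 0 of 14 promoters of the B lymphoid list. A match is a description of the letters and not a site shown to be bound.

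Erythroid genes rose as a list. Of 24 measured members 22 rose (91.7%, against 11.3% of all genes), 1 fell and 1 did not pass, with a median of 0.78. Slc4a1, the anion exchanger band 3 of the red cell membrane, had 2893, 2503 and 1610 normalized counts at 3 months and 9220, 7152 and 7907 at 12 months, a rise of 1.83 ± 0.26 (adjusted p = 0.0015). Alas2, the first enzyme of haem synthesis in red cells, rose by 1.68 ± 0.21 (adjusted p = 0.00093), from 323, 217 and 202 to 841, 681 and 813. These are genes of late red cell precursors, and their groups of libraries did not overlap. Over the list 15 of 24 members lay above at 12 months without overlap, against 17.6% of all genes. Below in that way was 1, against 17.9%. Of the haemoglobin chains, Hbb-bs rose by 1.80 ± 0.24 (adjusted p = 0.0012) and Hba-a2 by 1.61 ± 0.21 (adjusted p = 0.0011), although reads of the near-identical globin copies may be split between them. Other members rose by less. Gata1, the master regulator of the lineage, rose by 0.55, Klf1 by 0.57, and Tfrc, the transferrin receptor, by 0.63. Tal1 had 3059, 2760 and 2390 against 5511, 3796 and 4942, a rise of 0.79 ± 0.11 (adjusted p = 0.0015). Nfe2, a factor that erythroid cells share with megakaryocytes, fell by 0.40 ± 0.09 (adjusted p = 0.011). The summed list took 0.198% to 0.286% of a 3-month library and 0.325% to 0.475% of a 12-month library. The median was 0.83 with the Y index, where 20 of 24 members were higher at an unadjusted p under 0.05, and it was 0.82 and 0.41 in the Mut and KO lineage-negative pairs.

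Genes of DNA replication rose while genes of mitosis did not pass. Of 20 replication genes 18 rose (90%, against 11.3% of all genes) and 0 fell, with a median of 0.44. Of 18 mitotic genes 0 passed at an adjusted p under 0.05, with a median of 0.05, with Ccnb1 and Ccna2 at an unadjusted p under 0.05; 2 passed under edgeR and 2 under TMM scaling, and 0 under DESeq2. All 6 subunits of the MCM helicase, which unwinds DNA at replication origins, rose. Mcm2 had 9541, 8865 and 8452 normalized counts at 3 months and 15266, 11821 and 13444 at 12 months, a rise of 0.59 ± 0.08 (adjusted p = 0.0011). Mcm4 rose by 0.47 ± 0.06 (adjusted p = 0.0012), from 7594, 6735 and 6821 to 10551, 9143 and 9711. In each subunit the libraries of the 2 ages did not overlap. Over the list 14 of 20 replication genes lay above at 12 months without overlap, against 17.6% of all genes, and 0 below. Gins2, a subunit of the GINS complex of the same helicase, rose by 0.57 ± 0.08 (adjusted p = 0.0015), and Ccne1, the cyclin that takes cells into S phase, by 0.50 ± 0.11 (adjusted p = 0.0082). Ccne2, at 0.25, and E2f1, at 0.17, did not pass. Among mitotic genes the largest difference was that of Ccnb1, cyclin B1, at 0.21, and Mki67 was at 0.01, Plk1 at -0.01 and Foxm1, a transcription factor of mitotic genes, at -0.16. The replication median was 0.40 with the Y index and 0.25 and 0.20 in the Mut and KO lineage-negative pairs; the mitotic median was -0.10, -0.06 and 0.21 in the same 3 comparisons. The 2 lists were not tested against each other. The MCM genes were not higher at each step of age: at 9 months Mcm2 had 8798, 6851 and 7024. These were below both its 3-month and its 12-month values in every genotype. Without the 12-month KO library 12 replication genes rose, and 4 did without the KO libraries of every age, those of 6 and 9 months included.

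**Figure D3:**
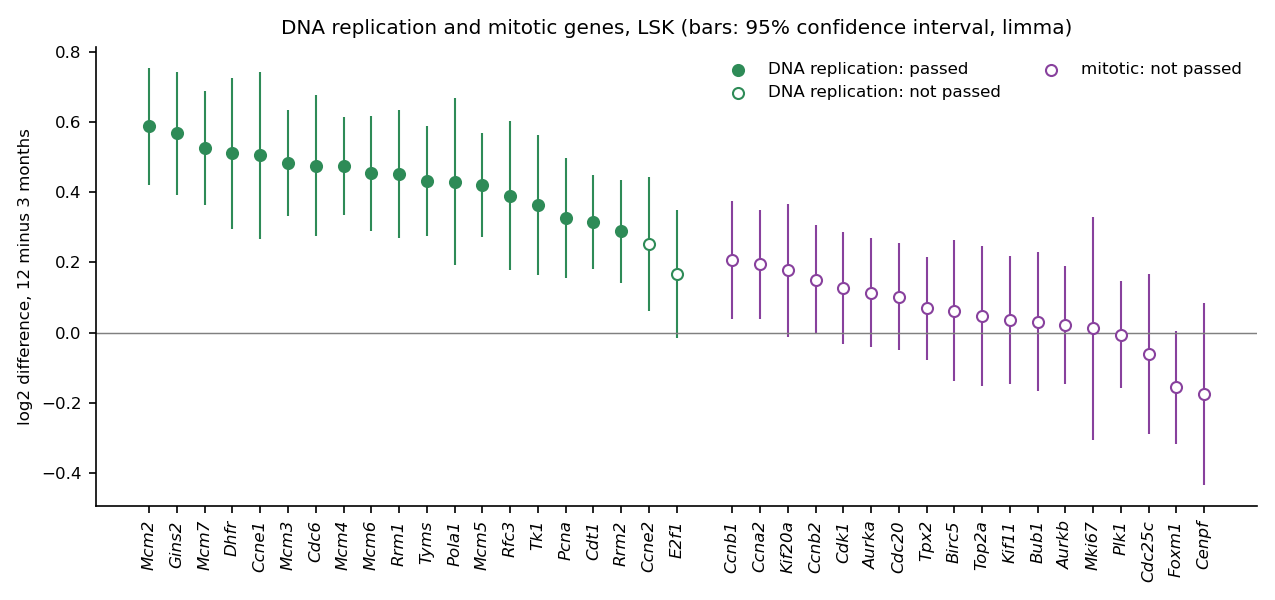
Difference between 12 and 3 months (log2 scale, vertical axis) for the 20 DNA replication and 18 mitotic genes measured in the libraries labelled LSK, with 95% confidence intervals from limma; filled points passed an adjusted p of 0.05 and open points did not. The replication genes lie between 0.17 and 0.59 and 18 of them are filled, and every mitotic gene is open, from -0.17 to 0.21.

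The promoters of both groups are known for different control elements, and 2 of each are shown for that reason. Capitals mark the E2F site, searched as TTTCCCGC, TTTCGCGC, TTTGCCGC and TTTGGCGC on both strands, in the replication genes Mcm3 (chr1:20820263-20820562, minus strand) and Mcm6 (chr1:128359656-128359955, minus strand). They mark the cell cycle homology region TTTGAA in the mitotic genes Plk1 (chr7:122159185-122159484, plus strand) and Cdc20 (chr4:118437294-118437593, minus strand). In Mcm6, 2 of the 3 E2F matches overlap.
Mcm3: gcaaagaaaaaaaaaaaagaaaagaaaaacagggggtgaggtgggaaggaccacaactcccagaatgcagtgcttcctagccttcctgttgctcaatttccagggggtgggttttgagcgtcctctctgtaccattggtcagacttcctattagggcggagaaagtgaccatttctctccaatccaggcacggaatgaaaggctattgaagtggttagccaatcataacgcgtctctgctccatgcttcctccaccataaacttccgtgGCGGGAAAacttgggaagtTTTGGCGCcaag
Mcm6: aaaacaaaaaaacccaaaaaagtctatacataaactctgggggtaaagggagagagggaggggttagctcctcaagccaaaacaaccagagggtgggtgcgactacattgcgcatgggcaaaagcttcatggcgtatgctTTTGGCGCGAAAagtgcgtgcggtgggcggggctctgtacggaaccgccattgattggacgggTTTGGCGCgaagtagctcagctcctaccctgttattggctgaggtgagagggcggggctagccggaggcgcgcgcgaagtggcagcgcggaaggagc
Plk1: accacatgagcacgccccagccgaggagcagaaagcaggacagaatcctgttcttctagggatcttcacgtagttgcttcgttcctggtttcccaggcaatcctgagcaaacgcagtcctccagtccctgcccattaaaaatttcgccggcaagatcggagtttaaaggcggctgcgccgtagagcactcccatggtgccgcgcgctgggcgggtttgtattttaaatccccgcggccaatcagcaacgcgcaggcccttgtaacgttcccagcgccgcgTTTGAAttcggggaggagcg
Cdc20: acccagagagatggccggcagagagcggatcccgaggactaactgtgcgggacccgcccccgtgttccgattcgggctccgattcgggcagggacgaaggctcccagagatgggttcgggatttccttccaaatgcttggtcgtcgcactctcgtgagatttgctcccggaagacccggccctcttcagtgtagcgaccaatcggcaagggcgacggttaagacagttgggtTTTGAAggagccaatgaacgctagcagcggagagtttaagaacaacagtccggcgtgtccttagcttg
The E2F letters stood in 8 of 16 replication promoters and 1 of 12 mitotic promoters (8.33%), against 4.04% of all 11119. The letters TTTGAA stood in 9 of 12 mitotic promoters (75.0%) and 1 of 16 replication promoters (6.25%), against 12.8% of all. CCAAT, which also occurs in promoters of both kinds, stood in 11 of 12 mitotic and 10 of 16 replication promoters, against 38.9% of all.

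B lymphoid genes had the lowest median change of the lists other than the sex-linked one. Of 20 members 15 fell (75%, against 11.5% of all genes), 0 rose and 5 (Cd22, Pou2af1, Cr2, Bank1 and Cd72) did not pass. The median change was -1.79. In all 20 each 12-month library was below each 3-month library, against 17.9% of all genes. Pax5, the factor that commits cells to the B lineage, had 438, 674 and 307 normalized counts at 3 months and 5.25, 21.2 and 15.7 at 12 months, a change of -5.09 ± 0.82 (adjusted p = 0.0024). Igll1, a chain of the surrogate light chain of the pre-B cell receptor, went from 361, 445 and 196 to 8.75, 10.6 and 15.7, a change of -4.68 ± 0.63 (adjusted p = 0.0012). Its partner Vpreb1 went from 263, 240 and 123 to 18.4, 9.71 and 15.7, a change of -3.72 ± 0.50 (adjusted p = 0.0012). The genes of early B cell development were thus close to their lowest level in all 3 pools of 12 months. Ebf1, which acts with Pax5, fell by 3.59 ± 0.57 (adjusted p = 0.0022). Among other members Cd79b, a signalling chain of the B cell receptor, fell by 0.66, Cd37 by 0.56 and Ighm, the IgM heavy chain, by 0.85.

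The fall was not gradual over the 4 ages. At 6 months Pax5 was at 427, 702 and 559, and at 9 months at 8.97 in WT, 659 in Mut and 31.0 in KO. At 9 months the WT and KO pools were thus near the 12-month level and the Mut pool was not. In the fit with the Y index the median of the list was -0.33 and 2 of 20 members were lower at an unadjusted p under 0.05. With the index in a fit of all 24 libraries, added after the data were seen, the LSK median was -1.03. In the lineage-negative pairs with like Y-linked sums it was -2.93 in Mut and -3.63 in KO. These are differences of single pairs without the index and were not tested against the fits with it. Without the 3-month KO library 8 members fell, and 9 did without the 3-month WT library or any 1 of the 12-month libraries.

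Genes of lymphoid-primed progenitors fell with them. Of 20 members 13 fell (65%, against 11.5% of all genes) and 0 rose, with a median of -0.70. Igll1 and Vpreb1 are members of both lists. Rag1, which cuts DNA in antigen receptor rearrangement, had 456, 480 and 177 at 3 months and 21, 31.8 and 7.85 at 12 months, a change of -4.19 ± 0.49 (adjusted p = 0.00089). Ccr9, a homing receptor of thymus-seeding cells, went from 254, 162 and 157 to 80.5, 70.6 and 58.9, a change of -1.41 ± 0.24 (adjusted p = 0.0028). Il7r, the interleukin 7 receptor, fell by 0.82 ± 0.14 (adjusted p = 0.0032), from 721, 597 and 718 to 447, 410 and 304. In none of the 3 did the ages overlap. Over the list 11 of 20 members lay below at 12 months without overlap, against 17.9% of all genes, and 0 above. Dntt, the terminal transferase of lymphoid progenitors, fell by 0.92 ± 0.25 (adjusted p = 0.020), with 829 in the 12-month WT library above 707 in the 3-month KO library. Satb1, a chromatin organiser that primes progenitors for the lymphoid lineage, fell by 0.57 ± 0.10 (adjusted p = 0.0034). The 7 members that did not pass were Flt3 at -0.02, Ikzf1 at 0.01, Ikzf3 at -0.20, Mef2c at 0.20, Bcl11a at 0.10, Lax1 at 0.17 and Tcf3 at 0.17. The median was -0.45 with the Y index and -0.93 and -0.78 in the Mut and KO lineage-negative pairs.

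The promoters of Igll1 (chr16:16863936-16864235) and Vpreb1 (chr16:16869206-16869505), neighbours on the minus strand, are shown as the pair with the surrogate light chain. Capitals mark the E-box CAGGTG or its reverse complement CACCTG, the letters that E2A proteins are known to bind.
Igll1: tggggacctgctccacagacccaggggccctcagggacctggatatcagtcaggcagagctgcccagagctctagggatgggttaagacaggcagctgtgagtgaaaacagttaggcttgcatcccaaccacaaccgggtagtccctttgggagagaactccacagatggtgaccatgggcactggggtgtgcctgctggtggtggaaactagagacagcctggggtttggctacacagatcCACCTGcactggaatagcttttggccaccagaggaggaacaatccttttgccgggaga
Vpreb1: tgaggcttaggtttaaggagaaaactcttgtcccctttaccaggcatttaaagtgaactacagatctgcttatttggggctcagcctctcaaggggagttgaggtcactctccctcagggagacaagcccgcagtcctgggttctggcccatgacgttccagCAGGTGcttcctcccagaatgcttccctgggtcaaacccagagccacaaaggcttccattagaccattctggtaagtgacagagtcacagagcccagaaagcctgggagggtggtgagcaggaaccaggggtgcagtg
The E-box stood in 9 of 14 B lymphoid promoters (64.3%), against 17.6% of all promoters of tested genes. It also stood in 6 of 16 lymphoid-primed promoters (37.5%) and 6 of 19 granulocyte promoters (31.6%). The share was 13.3% in the megakaryocyte and platelet list, 11.1% in the erythroid, 6.25% in the replication and 0% in the mitotic list. An EBF motif, CCCNNGGGA, stood in 1 of the 14 B lymphoid promoters, against 7.50%.

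The granulocyte list held changes in both directions. Of 21 measured members 4 rose (19%, against 11.3% of all genes), 9 fell (42.9%, against 11.5%) and 8 did not pass. The median change was -0.56. The 4 that rose were Elane, Prtn3, Ctsg and Ms4a3, genes of the azurophil granules and of promyelocytes. Ctsg, the protease cathepsin G, had 19304, 15447 and 17184 at 3 months and 29747, 21396 and 25506 at 12 months, a rise of 0.55 ± 0.10 (adjusted p = 0.0033). The 9 that fell encode receptors, granule proteins and other products of maturing neutrophils. Csf3r, the G-CSF receptor, went from 38657, 38875 and 39128 to 12147, 16066 and 13590, a change of -1.49 ± 0.17 (adjusted p = 0.00089). Cxcr2, the chemokine receptor with which neutrophils leave the marrow, went from 13741, 12498 and 12311 to 3818, 4618 and 5526, a change of -1.48 ± 0.21 (adjusted p = 0.0015). Retnlg fell by 1.45 ± 0.24 (adjusted p = 0.0024), the gelatinase Mmp9 by 1.09 ± 0.20 (adjusted p = 0.0038) and the collagenase Mmp8 by 0.99 ± 0.17 (adjusted p = 0.0030). Ltf, Lcn2, Ngp and S100a9 fell by 0.62 or more each. The 8 that did not pass were Mpo at 0.46, Gfi1 at 0.10, Fcnb at -0.19, Cebpe at -0.35, Cd177 at -0.46, Camp at -0.54, Lyz2 at -0.56 and S100a8 at -0.61. In the 9 that fell the libraries of the 2 ages did not overlap. Over the list 13 of 21 members lay below at 12 months without overlap, against 17.9% of all genes. Above in that way were 4, against 17.6%. With the Y index the median was -0.06, Cxcr2 was at -0.95, Csf3r at -0.97 and Ctsg at 0.28. The median was -0.47 and -0.55 in the Mut and KO lineage-negative pairs. With 1 library left out 2 to 4 members rose and 5 to 12 fell, with 5 falling without the 3-month WT library or any 1 of the 12-month libraries.

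Inflammatory genes fell in part. Of 26 members of the NF-kappaB list 7 fell (26.9%, against 11.5% of all genes) and 0 rose, with a median of -0.21. The share called in either direction, 26.9%, was near the 22.8% over all genes. Il1b, the cytokine interleukin 1 beta, had 3682, 3410 and 4442 at 3 months and 499, 767 and 738 at 12 months, a change of -2.54 ± 0.27 (adjusted p = 0.00050). Ptgs2, the inducible prostaglandin synthase, went from 444, 704 and 1406 to 129, 227 and 98.1, a change of -2.41 ± 0.34 (adjusted p = 0.0015). Tnf fell by 0.97 ± 0.13 (adjusted p = 0.0011), and Tlr2, Nfkbiz, Nfkbia and Birc3 fell by 0.42 to 0.76. The transcription factor genes themselves did not pass, with Nfkb1 at -0.03, Rela at -0.19 and Relb at -0.15. With the Y index Il1b was at -1.71, Ptgs2 at -2.41 and Nfkbia, whose sign turned, at 0.11, and the list's median was -0.05. Mature neutrophils are a known source of Il1b, Ptgs2 and Tlr2, and the neutrophil genes above fell in the same libraries; the part of one in the other was not tested. Without the 12-month WT library 3 members fell, and without the 3-month KO library 4.

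Immediate early genes, which respond within minutes to signals and to handling of cells, split. Of 25 members 2 rose (8%, against 11.3% of all genes) and 7 fell (28%, against 11.5%), with a median of 0.06. Jun, a subunit of AP-1, had 3245, 4634 and 5102 at 3 months and 18098, 16215 and 7432 at 12 months, a rise of 1.61 ± 0.31 (adjusted p = 0.0047). Fosb, another AP-1 subunit, rose by 1.84 ± 0.59 (adjusted p = 0.042), from 234, 542 and 993 to 3511, 2299 and 722. Its KO pair went down, so the ages overlapped. Junb fell by 1.15 ± 0.17 (adjusted p = 0.0016), Fosl2 by 0.90 ± 0.11 (adjusted p = 0.00089) and Btg2, an antiproliferative gene, by 0.72 ± 0.10 (adjusted p = 0.0011). The list's median was 0.008, 0.14 and -0.46 in the WT, Mut and KO pairs of LSK, and 0.36 with the Y index. In the Mut and KO lineage-negative pairs it was -0.34 and -1.01. Its sign was thus opposite between the fractions in Mut and the same in KO. Without the 3-month KO library 5 members rose and without the 12-month KO library 4 did, while 1 rose without any 1 of the other 4 libraries.

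The other lists are given with the share of their members called in either direction, to be set beside the 22.8% called over all genes. Of 14 genes of TET and DNA methylation enzymes 3 rose and 0 fell (21.4%), a share near that over all genes: Uhrf1, the partner of the maintenance methyltransferase, by 0.39, Idh2 by 0.45 and Dnmt3b by 0.50. Tet2 itself had 1529, 2535 and 1845 at 3 months and 1431, 2185 and 1484 at 12 months, and its change of -0.21 did not pass (adjusted p = 0.34). The KO pools were not lower than the WT pools at either age, and counts over the whole gene do not show which exons were read. Tet1 was at 0.23 and Tet3 at -0.05. Of 20 nuclear genes of oxidative phosphorylation 7 rose and 0 fell (35%), among them Ndufv1 by 0.37, a count that was 1 without the 12-month KO library and 13 without the 3-month WT library. Of 13 mitochondrially encoded genes 0 passed by limma, edgeR or DESeq2, with 3 at an unadjusted p under 0.05 in limma. Of 18 p53 target and senescence genes 5 fell, Trp53inp1 (-0.95), Fas (-0.79), Sesn2 (-0.58), Pmaip1 (-0.57) and the p53 ligase Mdm2 (-0.38), and 2 rose, Aen and Cdkn2c (38.9% in all). With 1 library left out 3 to 5 of that list fell and 0 to 2 rose. Of 19 chromatin regulators linked to blood cancer 5 were called (26.3%), again near the share over all genes. Ezh1, Sirt7 and Asxl1 fell, and Kdm6a and Phf6, both X-linked and both below 0 with the Y index, rose. Of 30 interferon response genes 3 were called (10%): Isg20 rose by 0.45, and Ddx58 and Mx1 fell by 0.48 and 0.43. Of 25 cytokine and chemokine receptors 9 fell and 2 rose (44%), with Csf3r, Cxcr4 and Csf2ra among the former and Epor among the latter; 5 fell without the 12-month WT library, 6 without either KO library and 11 without the 3-month Mut library. Of 14 replication-dependent histone genes 2 fell (14.3%), H1f2 by 1.15 and H2bc4 by 0.59; how the reads were selected for polyadenylated RNA is not given in the sources used here.

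Markers of other marrow cells are given against the 11.5% of all genes that fell and the 11.3% that rose. Of 15 measured stromal and endothelial genes 7 fell (46.7%) and 1 rose. Leaving out 1 library lowered the 7 to 4 (3-month WT or Mut), 3 (12-month WT or Mut) or 2 (KO of either age). Cxcl12, the chemokine of marrow stroma that retains stem cells, had 491, 694 and 365 at 3 months and 28, 132 and 155 at 12 months, a change of -2.57 ± 0.40 (adjusted p = 0.0019). Cdh5, the endothelial cadherin, went from 96.7, 75.4 and 91.9 to 31.5, 31.8 and 31.4, a change of -1.44 ± 0.35 (adjusted p = 0.015). The summed stromal list took 0.0120% to 0.0156% of a 3-month library and 0.0141% to 0.0150% of a 12-month one. The shares that fell in the lists of other blood cells were not far from that over all genes, or were below it. Of 24 T and NK cell genes 3 fell (12.5%), Gzma, Cd8b1 and Cd8a, by 1.20 to 1.95. Of 21 monocyte genes 3 fell (14.3%), Itgam, Apoe and Mrc1, and 1 rose, Cd14. Of 20 dendritic cell genes 3 fell (15%), Siglech, Cd209a and Ccr7, and 1 rose, Zbtb46. Of 14 genes of mast cells, basophils and eosinophils 2 fell (14.3%), Ccr3 and Il6ra, and 2 rose, Il1rl1 and Fcer1a. Of 17 plasma cell genes 1, Irf4, fell (5.88%). With 1 library left out these small counts moved, to 1 to 4 T and NK cell, 1 to 3 monocyte, 2 to 5 dendritic cell and 0 or 1 plasma cell genes that fell. Siglech, a marker of plasmacytoid dendritic cells, fell by 1.77 ± 0.32 (adjusted p = 0.0039), and Ccr3, an eosinophil chemokine receptor, by 2.09 ± 0.55 (adjusted p = 0.020). The part of such cells in the other results was not tested.

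**Figure D4:**
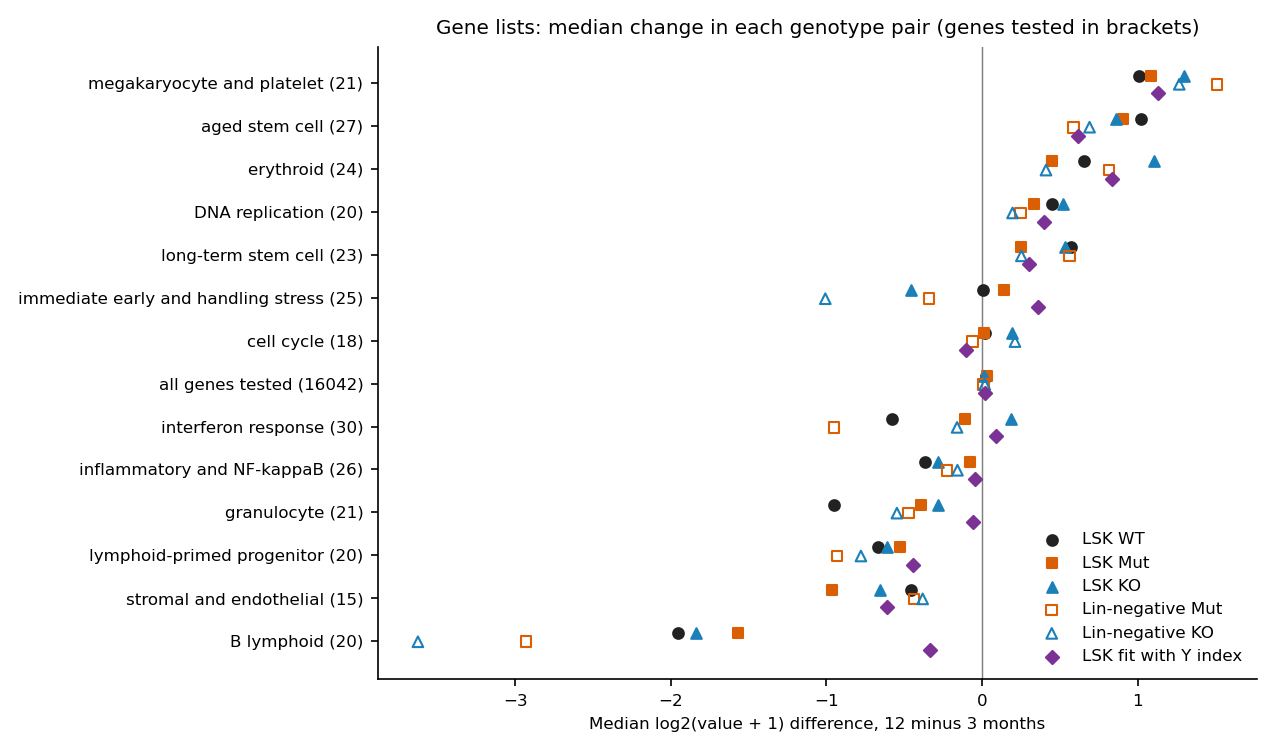
Median change between 12 and 3 months (log2 scale, horizontal axis) over the measured genes of 13 lists and over all genes tested, with filled symbols for the 3 LSK genotype pairs, open symbols for the Mut and KO lineage-negative pairs and diamonds for the LSK fit with the Y index. The megakaryocyte, aged stem cell, erythroid and replication medians are above 0 in every one of these comparisons, and the B lymphoid median lies between -1.57 and -3.63 in the pairs and at -0.33 in the fit with the index.

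Few genes changed differently in the libraries labelled LSK and in the lineage-negative ones. The difference between the fractions in the 12 minus 3 month change passed for 94 of 16066 genes (0.585%), 74 with the higher change in LSK (0.461%) and 20 with the lower (0.124%), by the interaction term of a limma fit on all 24 libraries; 1568 had an unadjusted p under 0.05. In its own test the lineage-negative fraction had 1586 of 16041 genes called (9.89%), 478 higher (2.98%) and 1108 lower (6.91%). Of the genes that rose in LSK 328 also rose there (18.1% of the LSK list and 68.6% of the lineage-negative list), and of those that fell 839 also fell (45.4% and 75.7%). Called in opposite directions were 2 genes, named after their values were seen: Fkbp5, a target of the glucocorticoid receptor, at 0.24 in LSK and -0.61 in the lineage-negative fraction, and Gm8113 at -0.96 and 1.03. The fit took the LSK and lineage-negative libraries of a genotype and age as a pair, although their Y-linked sums differed at 3 months. With the Y index 67 genes passed. Leaving out 1 library, of either fraction, gave 31 genes (12-month WT), 35 (12-month KO), 40 (12-month Mut) and 207 or 208 (3-month WT).

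By the naming rule the 6 largest differences with the higher change in LSK were those of Xist (10.77), the antibody segments Ighv5-9 (3.29) and Igkv12-89 (3.27), Cxcl2, Fosb and Nuak1 (2.06). The 6 largest with the lower change in LSK were those of the eosinophil genes Ear6, Epx, Ear1, Prg2 and Prg3 and of Gm8113. Of 25 immediate early genes 7 differed, all with the higher change in LSK: Jun by 1.64 (adjusted p = 7.1e-08), Fosb by 2.30 (adjusted p = 8.7e-06), Dusp1 by 1.84 (adjusted p = 6.2e-06), Fos by 1.25 (adjusted p = 2.0e-05), Dusp2, Klf6 and Btg2. Fos was at 0.50 in LSK and -0.75 in lineage-negative libraries, and Dusp1 at 0.06 and -1.77. Cxcl2, a neutrophil-attracting chemokine, was at -0.29 in LSK and -3.00 in the lineage-negative fraction, a difference of 2.71 (adjusted p = 2.7e-05). The eosinophil granule genes Epx, Prg2, Prg3 and Ear1 had the lower change in LSK. Epx, eosinophil peroxidase, had 4808, 2877 and 2803 at 3 months and 4306, 3049 and 2125 at 12 months in LSK, a change of -0.16 that did not pass, against 2.02 in the lineage-negative fraction. Prg2, the major basic protein, was at -0.04 against 1.99. In these genes the change lay in the lineage-negative libraries. Of the 20 B lymphoid genes 4 differed, Cd79a, Spib, Pou2af1 and Cd72, each having fallen less in LSK. None of the erythroid, long-term stem cell or DNA replication genes differed between the fractions at an adjusted p under 0.05, which does not show that they changed alike.

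**Figure D5:**
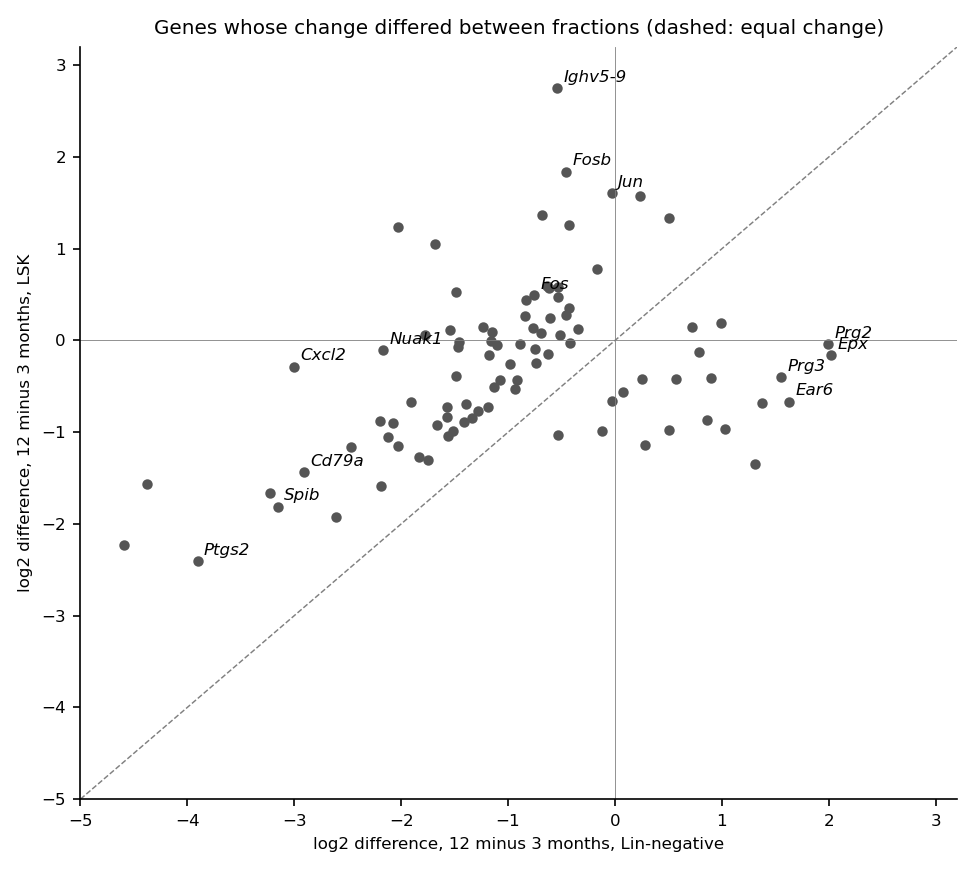
Change between 12 and 3 months (log2 scale) in the lineage-negative libraries (horizontal axis) and in the libraries labelled LSK (vertical axis), each from its own fit, for the genes whose change differed between the fractions, without Xist. Points above the dashed line of equal change had the higher change in LSK; Jun and Fosb lie near 0 or below on the horizontal axis and above 1.6 on the vertical one, and Epx and Prg2 near 2 on the horizontal axis and near 0 on the vertical one.

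Outside the fixed lists, the genes with the largest changes by the naming rule were few in kind. Among the 12 largest rises were 3 platelet genes already in the lists or known in platelets, Ppbp, Pf4 and Gnaz, a G protein subunit. Timp3, a metalloproteinase inhibitor, went from 42.9, 28.3 and 23.5 to 188, 143 and 192, a rise of 2.46 ± 0.31 (adjusted p = 0.00098), and it was at 3.16 with the Y index and at 2.49 and 3.30 in the Mut and KO lineage-negative pairs. Trpc6, a calcium-permeable channel, rose by 2.08 ± 0.28 (adjusted p = 0.0012), from 32.8, 19.8 and 33.6 to 134, 132 and 102. Both were higher in every 12-month library. Podxl, the sialomucin podocalyxin, went from 42.0, 223 and 85.1 to 133, 284 and 1399, a rise (adjusted p = 0.040) that turned to -0.53 with the Y index. The remaining rises were Xist, Apol11b, Spock2, the noncoding Gm10419, and the antibody variable segments Igkv14-130 and Ighv5-9, whose reads may be shared with near-identical segments. Among the 12 largest falls were 3 Y-linked genes, genes of early B or lymphoid cells (Pax5, Igll1, Rag1, Vpreb1, Ebf1 and Vpreb3 among them), Gm10800 and Chst3, a chondroitin sulfotransferase. Chst3 had 311, 352 and 264 at 3 months and 8.75, 26.5 and 33.4 at 12 months, a change of -3.88 ± 0.72 (adjusted p = 0.0041), and it was at -5.18 and -5.27 in the Mut and KO lineage-negative pairs. Gm10800 rested on 1 library, with 3018 counts in the 3-month Mut pool against 79.4 and 130 in the others of that age.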

How the data were processed

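RNA-seq of 24 libraries was deposited by the authors as 1 table of 16070 genes in normalized counts, a signal scaled per library and not raw counts. Per the submitters' processing notes, Trim Galore 0.6.5, STAR 2.7.3a, featureCounts, edgeR and mm10 were named, with no order or role. Every deposited value was a whole number of reads divided by a size factor of 0.816 to 1.23 (100% whole within 1e-06 reads), which gave read totals of 33943957 to 43059791 for the 6 libraries and the input for edgeR and DESeq2. Groups came from the sample titles; the description code of the 12-month Mut LSK library ends in K, whereas its title, genotype and table column give Mut. The codes and columns of the 3 LSK libraries of 3 months, and of no other library, end in an n that no label explains. Gene symbols matched RefSeq for 15994 genes (99.5%).

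The main test was limma 3.58.1 in R 4.3.3 (trended empirical Bayes) on log2(value + 1) over the 12 LSK libraries, with genotype and age as factors, for genes with at least 10 in at least 3 libraries. The 6- and 9-month libraries entered the estimate of spread. The second test was the fraction by age interaction over all 24 libraries. Both were tested on simulated data: for the LSK comparison 54% of 100 genes changed 1.5-fold and 77% of 100 changed 2-fold were recovered, for the difference between fractions 32% and 73%. Alternatives covered pseudocounts, filters, scaling (TMM), edgeR 4.0.16, DESeq2 1.42.0, the Y index and the libraries used. Named genes were the 12 largest called changes each way with 1 sign in all 3 pairs and a mean log2 value of at least 5, the 6 largest each way for the interaction, and up to 6 called members of each list, smallest p first; further list members are given as values, and a few members of the lists are not reported here. The comparison, the lists and the Y index were chosen with earlier results of these data known. Promoters were RefSeq windows.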

Additional observations from a re-analysis of the deposited data

Results flagged for a closer look

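Each gene here was noted because its change between 12 and 3 months differed between the LSK and lineage-negative libraries at an adjusted p under 0.05 (limma interaction term); values are the LSK change minus the lineage-negative change on the log2 scale. Xist, at 10.77, moved with the makeup of the pools, since the 3-month lineage-negative pools already held it and the 3-month LSK pools did not.

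Among immediate early genes the difference was 2.30 for Fosb, 1.836 for Dusp1, 1.639 for Jun, 1.253 for Fos, 0.9095 for Dusp2, 0.4827 for Klf6 and 0.465 for Btg2. The inflammatory genes Cxcl2 and Ptgs2 differed by 2.715 and 1.496, and Cd14 and Thbs1 by 1.116 and 1.098. These genes respond to cell handling as well as to signals, and no value here separates the sorts of the 2 fractions, so that cause was not tested.

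The B lymphoid genes Cd79a, Spib, Cd72 and Pou2af1 differed by 1.474, 1.344, 1.323 and 1.304, Cd38 by 1.24 and Irf4 by 0.6266. The antibody segments Ighv5-9 and Igkv12-89 differed by 3.292 and 3.273, and the kinase gene Nuak1 by 2.06. The neutrophil collagenase gene Mmp8 differed by 0.5305.

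Genes with the lower change in LSK were the eosinophil genes Ear6 at -2.295, Epx at -2.179, Ear1 at -2.059, Prg2 at -2.029 and Prg3 at -1.955, together with Gm8113 at -1.991 and the mitochondrial gene mt-Co2 at -1.301. Reads of Ear1 and Ear6, close paralogs, may be split between them.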

How the results depend on the processing

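Over the alternatives, the count of genes called between 12 and 3 months was between 2476 and 4121 under other pseudocounts, filters, scaling, trend settings and tools, with only the 6 libraries, with all 24 and without the 9-month libraries. It was 1 with the Y index, 42 with the Y index over all 24 libraries (added after the data were seen), 1543 with no genotype term, 738 with age as a number, and 2196, 1879 and 622 without the WT, Mut or KO libraries. Leaving out 1 library gave 1614 to 3102. The difference between the fractions held 34 genes without the mean-variance trend and 31 to 208 with 1 library left out, where the lone remaining pairs share the spread of the other groups. The Y index removed age information with it: the standard error of the age term rose 1.93 times by design alone, so its few calls do not show that the age difference is absent.

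Called genes that changed sign were Podxl at -0.5283, Nfkbia at 0.1142, Kdm6a at -0.2539 and Phf6 at -0.04327 with the Y index; Nfkbia at 0.05027, Fas at 0.01693, Kdm6a at -0.2386 and Phf6 at -0.00925 with the Y index over 24 libraries; and Sdha at -0.001038 per month. The cause was not tested. No other called gene chosen by the naming rule changed sign under any alternative run. Depth did not limit the abundant genes, but levels near 10 counts, such as Pax5 at 12 months, rest on few reads and their log2 changes depend on the pseudocount. The ages were paired by genotype in every fit with a genotype term, and the fit without that pairing is the one of 1543 genes above; the labels give no replicate numbers on which a further pairing could rest.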

Other observations

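The Mut pools of 6 and 9 months, which only entered the estimate of spread, stood apart from the WT and KO pools in a few listed genes. Ly6a, which encodes Sca1, had 2178 and 1897 normalized counts in the 6- and 9-month Mut libraries labelled LSK, against 294 and 479 in WT and 570 and 584 in KO. Cd38, which marks mouse stem cells and B cells, had 752 and 931 in Mut, against 248 and 162 in WT and 337 and 366 in KO. At 9 months the Mut pool also held 499 counts of Ms4a1 and 902 of Blk, against 37.7 and 52.0 in WT and 23.3 and 77.5 in KO. Each value is 1 pool, so these differences have no replicate check. At 12 months the Mut pool held 19.4 counts of Ms4a1 and 54.7 of Blk.

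Late erythroid transcripts were above their 3-month level at 9 months. Hbb-bs had 9531, 6673 and 5000 in WT, Mut and KO at 9 months, each above the 4684, 3165 and 4601 of 12 months, and Alas2 had 1347, 1141 and 848 against 841, 681 and 813. Slc4a1, band 3, had 9923, 8163 and 6693 at 9 months against 9220, 7152 and 7907 at 12 months, so it was higher at 9 months in WT and Mut and lower in KO. The summed erythroid list of the KO pool was also lower at 9 than at 12 months, 0.317% against 0.408% of the library.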
